A study of Mus musculus with 6 samples.

Results

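The comparison described here is that of Trpm4 knockout (KO) with wild-type (WT) hearts 72 h after the left anterior descending coronary artery was tied (LAD ligation), in cells other than cardiomyocytes. A cell was included if it had at least 2500 unique molecular identifiers (UMIs, each standing for 1 captured transcript molecule), at least 200 detected genes and at most 20% mitochondrial UMIs. For neutrophils, which hold little RNA, the minimum was 1500 UMIs, and a barcode counted as one if S100a8 and S100a9 made up at least 1% of its UMIs and it had at least 1 UMI of Csf3r. The rule kept 3785 WT and 2186 KO cells, 5971 of the 34940 cells in the 6 libraries of the series. The UMI minimum was set because the KO library was shallow. No genotype difference in the level of a gene entered the rule.

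The series holds 1 single-cell RNA sequencing library for each genotype after a sham operation at 24 h, after ligation at 24 h and after ligation at 72 h. The WT mice carry the strain label C57BL/6JRj and the KO mice the strain label B6.Cg-Trpm4tm1.2-PG. Mice of both groups were male and 8-12 weeks old, underwent LAD ligation and were sampled at 72 h. The ventricles were digested with thermolysin and papain for 30 minutes at 37 °C, the suspension was passed through meshes of 300 µm and 40 µm, and a sort on Calcein-AM and DAPI staining took live cells into 10x 3′ libraries. Cells of 4 mice were pooled in each library. The labels name no floxed allele or Cre driver, no littermate controls, and no map from cells to mice. Strain, library and genotype therefore cannot be told apart, each group is 1 sample, and no test or p-value is given. All intervals are 95% intervals of counting error.

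Trpm4 encodes a calcium-activated channel of the plasma membrane that lets monovalent cations in and so depolarizes the cell, which lowers the driving force for calcium entry. After an infarct, neutrophils and then monocytes enter the injured wall, monocytes become macrophages that clear debris, and fibroblasts begin to build the collagen scar. Leukocytes in the infarct also take up nucleic acids of dying cells, and a share of them responds with type I interferon signaling, in which a complex of transcription factors switches on a common set of interferon-stimulated genes.

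The targeted gene was read at a low level in both genotypes. Trpm4 (ENSMUSG00000038260, GRCm38 chromosome 7, 45302632 to 45333780, minus strand) had 192 UMIs in the WT cells that passed the rule, or 4.35 CPM (the gene's UMIs per 1000000 UMIs, with an interval of 3.75 to 5.01), and 40 UMIs in the KO cells, or 2.60 CPM (1.85 to 3.54). The KO to WT ratio was 0.597 (0.414 to 0.843). The ratio was 0.679 (0.561 to 0.821) after sham and 0.624 (0.484 to 0.805) at 24 h of ligation, so the library labelled KO was the lower in each of the 3 comparisons, and Trpm4 UMIs remained in all 3. The labels do not give the deleted exons, and a 3′ tag outside the deleted part checks nothing. Macrophages alone had 122 UMIs in WT (4.06 CPM) and 18 in KO (2.09 CPM), a ratio of 0.516 (0.296 to 0.851). Neutrophils had none in either library. A count of 0 there leaves room for a level of at most 1.97 CPM (WT) or 4.92 CPM (KO). Of 66 genes within 2 Mb of Trpm4 that were measured in macrophages, 1 differed 2-fold or more, and their median log2 ratio was −0.12. That gene was Saa3, lower in KO with a log2 ratio of −1.01. Over all genes measured in macrophages 0.717% were at least 2-fold higher, 0.717% were at least 2-fold lower, and the median was −0.03.

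The KO library stood apart in depth. It held 7286 deposited barcodes with a median of 1310.5 UMIs, against 4678 with a median of 7818.5 in WT. The UMI minimum left out 69.8% of the KO barcodes and 17% of the WT barcodes. Just below the minimum, from 2000 to 2499 UMIs, lay 510 KO and 523 WT barcodes, of which 118 and 244 passed as neutrophils. Just above it, from 2500 to 2999 UMIs, lay 434 KO and 285 WT barcodes. The libraries shared 6 cell barcodes. After doublet removal 3643 WT and 2059 KO cells remained. Among the KO cells 152, or 7.38% (6.29 to 8.60), formed a cluster with RNA of several lineages at once, against 3 WT cells, or 0.0824% (0.0170 to 0.240). In its KO cells, Lyz2 of macrophages stood at 10613 CPM, S100a8 of neutrophils at 2407 CPM and Dcn of fibroblasts at 1764 CPM. Such clusters stayed unnamed and out of all classes below, and the summed markers of other cell types are given with the classes.

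Clusters were named from marker genes and are to be read as macrophage-like, neutrophil-like and so on, although the suffix is left out below. Monocytes and macrophages were the largest class, with 2180 WT and 990 KO cells and medians of 12014 and 8341.5 UMIs. Csf1r, the receptor for macrophage colony-stimulating factor, stood at 365 CPM in WT and 359 CPM in KO. Neutrophils numbered 633 and 269, with S100a8 at 42526 and 42130 CPM. Fibroblasts numbered 127 and 117, endothelial cells 163 and 117, and dendritic cells 204 and 165. Their defining markers were present in both genotypes: Pdgfra stood at 128 and 207 CPM in fibroblasts, Cdh5 at 897 and 845 CPM in endothelial cells, and Flt3 at 65.5 and 85.1 CPM in dendritic cells. B cells (107 and 35), T and NK cells (79 and 30), smooth muscle cells (25 and 13) and residual cardiomyocytes (26 and 28) were too few for values by gene.

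Macrophages made up 59.8% (58.2 to 61.4) of the kept WT cells and 48.1% (45.9 to 50.3) of the kept KO cells, a difference of −11.8 points (−14.4 to −9.07). Neutrophils made up 17.4% and 13.1%, fibroblasts 3.49% and 5.68%, endothelial cells 4.47% and 5.68%, and dendritic cells 5.60% and 8.01%. Unnamed clusters held 2.72% and 14.3%. These shares depend on which cells pass the UMI minimum: among cells with at most 8000 UMIs the macrophage share was 7.87 points higher in KO, and with no UMI minimum it was 26.8 points lower.

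In macrophages the gene groups of the interferon response were lower in KO, and most genes of early inflammation were higher in the sum of all cells. Of 38 measured interferon-stimulated genes 36 were lower in KO, with Irf7, Isg15 and the Ifit genes among them. All 15 measured genes of MHC class I presentation were lower, and so, in the sum of all cells, were Ccl8, Ccl7 and Ccl12, which attract monocytes. Il1b and Cxcl2, which carry the early inflammatory response, were about 2 times as high in KO in that sum. Both differed less among cells with at most 8000 UMIs. Across 9757 measured genes the median log2 ratio was −0.03, and 45.3% were higher in KO by any amount. At least 2-fold higher in KO were 70 genes, 0.717% of those measured, and at least 2-fold lower were 70, again 0.717%. A gene counted as measured if at least 20 UMIs would be expected in each library at an equal level.

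The interferon-stimulated list held 39 genes, of which 38 are in the files. Irf7, the transcription factor that amplifies the interferon response, stood at 295 CPM in WT macrophages and 125 CPM in KO, a ratio of 0.425 (0.398 to 0.452). Isg15, a ubiquitin-like modifier, stood at 396 and 222 CPM, a ratio of 0.560 (0.533 to 0.588). Ifit3, whose protein binds to antiviral signaling complexes, stood at 112 and 44.2 CPM, a ratio of 0.394 (0.353 to 0.438). None of these 3 intervals reached a ratio of 1. Ifit3 and Ifit3b are near-identical copies, so that their separate values are uncertain. Rsad2, which encodes the antiviral enzyme viperin, stood at 87.1 and 51.3 CPM, and Cxcl10, a chemokine for activated T cells, at 185 and 116 CPM. Bst2, the tether of budding viruses, stood at 552 and 360.1 CPM. The list's median log2 ratio was −0.53, and 6 of the 38 members (15.8%) were at least 2-fold lower: Ifi44, Iigp1, Ifit3b, Ifit3, Irf7 and Oasl1. The difference was uneven within the list. Trim30a stood at 125 and 124 CPM, Parp14 at 91.1 and 90.8 CPM, and Ifi204 was level at 219 CPM in both. Slfn5 had the highest ratio, at 177 and 196 CPM, and turned to a log2 ratio of −0.09 with equal weight per cell. Summed over the list, the level was 3667 CPM in WT and 2588 CPM in KO, from 110234 and 22235 UMIs.

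**Figure D1:**
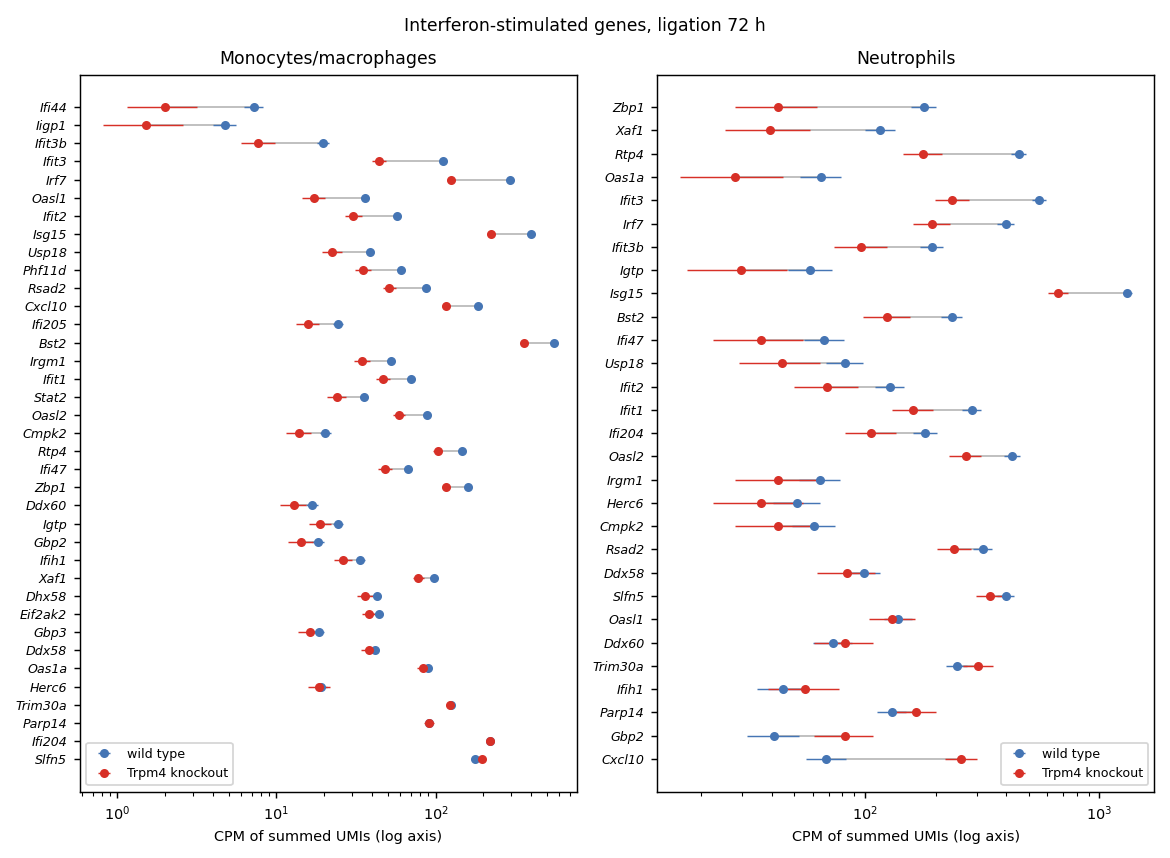
Level of each measured interferon-stimulated gene in CPM (log axis) in macrophages (left) and neutrophils (right), with WT in blue, KO in red, 95% intervals of counting error as bars and a gray line joining the 2 values. The KO point lies left of the WT point for 35 of the 37 genes drawn in macrophages and 23 of the 29 drawn in neutrophils.

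Many members of the list share a promoter motif. Interferon-stimulated response elements hold 2 GAAA repeats set 2 bases apart, and the motif GAAANNGAAA was searched on both strands from 250 bases before to 50 bases after each RefSeq transcript start (GRCm38.p6). Of the 38 members 30 matched the promoter table by symbol, and 20 of these (66.7%) held the motif. It was present in 327 of 7829 genes measured in macrophages (4.18%), in 1079 of all 27025 genes (3.99%) and in 1 of 19 matched genes (5.26%) of the lipid-handling list described below. A match describes letters and shows no binding. Below are the 250 bases before the start of 4 members named above, 5′ to 3′ on the gene's strand, to show how near the start the element sits. Capitals mark the motif, which appears as TTTCNNTTTC where it lies on the other strand.
Isg15, chr4:156200819-156201068, minus strand: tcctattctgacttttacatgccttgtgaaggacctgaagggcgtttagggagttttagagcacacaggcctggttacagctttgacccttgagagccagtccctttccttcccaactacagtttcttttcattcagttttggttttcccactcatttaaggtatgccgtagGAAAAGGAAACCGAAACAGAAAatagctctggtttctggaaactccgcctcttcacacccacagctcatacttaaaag
Ifit1, chr19:34640639-34640888, plus strand: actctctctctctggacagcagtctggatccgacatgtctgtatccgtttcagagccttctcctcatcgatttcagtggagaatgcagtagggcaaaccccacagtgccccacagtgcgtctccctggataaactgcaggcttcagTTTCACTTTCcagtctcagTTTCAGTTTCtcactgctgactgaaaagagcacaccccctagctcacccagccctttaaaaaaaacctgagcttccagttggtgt
Rsad2, chr12:26456453-26456702, minus strand: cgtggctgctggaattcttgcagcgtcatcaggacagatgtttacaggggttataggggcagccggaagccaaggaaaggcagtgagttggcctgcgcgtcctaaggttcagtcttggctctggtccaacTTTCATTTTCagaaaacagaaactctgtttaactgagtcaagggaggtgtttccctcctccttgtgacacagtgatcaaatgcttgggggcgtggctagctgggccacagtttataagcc
Cxcl10, chr5:92348890-92349139, minus strand: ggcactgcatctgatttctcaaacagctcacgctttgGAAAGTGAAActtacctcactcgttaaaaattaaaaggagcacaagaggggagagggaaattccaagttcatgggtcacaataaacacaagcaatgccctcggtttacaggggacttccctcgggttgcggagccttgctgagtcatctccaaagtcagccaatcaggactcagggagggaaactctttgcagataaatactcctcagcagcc
In the Isg15 promoter 3 overlapping matches begin 78, 72 and 66 bases before the start. Ifit1 holds 2 separate matches, at 104 and 85 bases, and Rsad2 and Cxcl10 hold 1 each, at 120 and 213 bases. The window of Irf7 held no match.

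The genotypes differed in the upper tail of cells with many interferon-stimulated UMIs, and little in the median cell. To compare cells at equal depth, each macrophage was thinned to 2500 UMIs, which left out no WT and 4 KO cells. The median cell then had 4 UMIs of the list in both genotypes. The 90th percentile was 24.1 UMIs in WT and 12 in KO, and the mean was 9.92 (SD 16.3 over cells) and 6.51 (SD 11). Without thinning, the list made up 0.173% of the median WT cell and 0.164% of the median KO cell, and 0.943% and 0.456% at the 90th percentile. Within each of the 7 macrophage clusters the list's median log2 ratio was between −0.11 and 0.20. The clusters were built from these same genes, so this is a description only. The cluster with most WT macrophages was led by Cxcl10, Cfb and Ccl8 and the one with most KO macrophages by Vcan and Chil3.

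**Figure D2:**
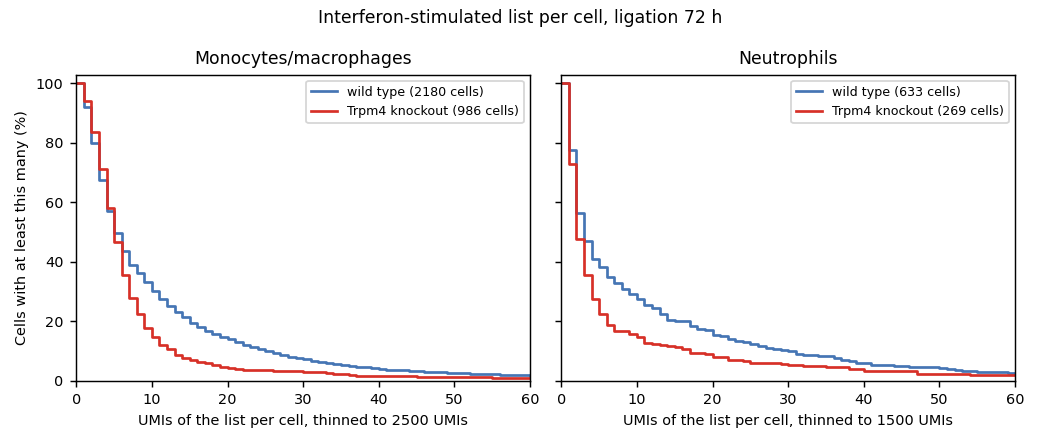
Share of cells (%) with at least a given number of interferon-stimulated UMIs, for macrophages thinned to 2500 UMIs and neutrophils thinned to 1500, in WT and KO. The curves lie close near the median (4 and 4 UMIs in macrophages) and separate in the upper tail (90th percentile 24.1 and 12).

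MHC class I genes, which present peptides of the cell's own proteins and are induced by interferons, were lower in KO macrophages in all 15 measured cases, with a median log2 ratio of −0.34. The heavy chains H2-K1 (936 CPM in WT, 638 CPM in KO) and H2-D1 (1779 and 1341 CPM) and the light chain B2m (1761 and 1312 CPM) had ratios of 0.682, 0.754 and 0.745. The immunoproteasome subunit Psmb8 differed least, at 465 and 442 CPM. MHC class II genes, which present ingested proteins, did not share this direction. Of 9 measured 8 were higher in KO with a median of 0.23, such as H2-Ab1 at 914 and 1073 CPM, although among cells with at most 8000 UMIs their median was 0.00.

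Of 11 measured genes in the CC chemokine list, which includes Cxcl16, 7 were lower in KO. Ccl8 showed the lowest ratio among the genes named by rule in macrophages, at 336.5 CPM in WT and 93.3 CPM in KO, a ratio of 0.277 (0.258 to 0.298). Ccl7 stood at 1045 and 599 CPM, Ccl12 at 601 and 355 CPM, and Ccl2 at 1454 and 1268 CPM. All 4 attract monocytes, and their ratios ran from 0.277 to 0.872. Ccl6 (1063 and 1177 CPM) and Ccl24 (42.8 and 64.6 CPM) were higher in KO. Among cells with at most 8000 UMIs (393 WT and 463 KO) the log2 ratio of Ccl8 was −0.74 in place of −1.85, while Ccl12 (0.54), Ccl7 (0.25) and Ccl2 (0.16) were higher in KO and Ccl6 (−0.28) and Ccl24 (−0.68) lower. The list's median was 0.16 there, against −0.20 over all cells.

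Most cytokine and immediate early genes were higher in KO macrophages in the sum of all cells. Of 23 inflammatory genes 17 were higher, with a median log2 ratio of 0.24, and 1 was at least 2-fold higher. Summed over the 26 genes of that list, the level was close to equal, at 4988 CPM in WT and 4960 CPM in KO. Cxcl2, a chemokine for neutrophils, stood at 237 CPM in WT and 563 CPM in KO, a ratio of 2.37 (2.29 to 2.46). Il1b, the precursor of interleukin-1β, stood at 241 and 467 CPM, a ratio of 1.94 (1.86 to 2.01). Osm, which encodes oncostatin M, stood at 29.6 and 55.0 CPM. Among 24 immediate early genes, which also respond to tissue dissociation, 21 were higher with a median of 0.38, such as Egr1 (14.5 and 28.3 CPM) and Atf3 (135 and 217 CPM). Both lists depended on the depth of the cells compared: among macrophages with at most 8000 UMIs the medians were 0.08 and −0.04. There the log2 ratio was 0.48 for Cxcl2 and 0.28 for Il1b, against 1.25 and 0.95 over all cells. It was 0.26 for Egr1 and −0.37 for Osm, against 0.97 and 0.90. Within single macrophage clusters, which were built from these same genes, the inflammatory median lay between −0.15 and 0.33. Summed neutrophil markers in macrophages were 337 CPM in WT and 449 CPM in KO, with 0 of 10 markers at 0 in either, and their part in the Il1b and Cxcl2 values was not tested.

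Genes of lipid handling, lysosomes and heme breakdown were lower in KO macrophages when all cells were summed. Of 25 lipid-handling and repair genes 22 were lower, with a median log2 ratio of −0.26. Spp1, the secreted matrix protein osteopontin, stood at 5347 CPM (WT) and 3299.7 CPM (KO), and Fabp5, a fatty acid carrier, at 2352 and 1362 CPM. Gpnmb and Trem2, markers of debris-clearing macrophages, stood at 145 and 91.1 CPM and at 694 and 548 CPM. Abca1, the cholesterol exporter, was higher in KO at 98.4 and 119 CPM. Hmox1, which breaks down heme, stood at 2174 and 1057 CPM, a ratio of 0.486 (0.475 to 0.497), and the iron exporter Slc40a1 at 15.1 and 6.75 CPM. Of 25 lysosomal genes 23 were lower with a median of −0.25, such as Ctsd at 3207 and 2123 CPM. Of 23 measured among cells with at most 8000 UMIs 15 were lower with a median of −0.10, the log2 ratio of Ctsd was −0.11 in place of −0.60, and Cd63 (0.46) and Lipa (0.30) were higher in KO. Ctsk had a still lower ratio, but a single WT barcode held 79.5% of its UMIs. Among cells with at most 8000 UMIs the lipid-handling median was 0.11, and Spp1 (0.45), Trem2 (0.43), Gpnmb (0.26), Fabp5 (0.21) and Hmox1 (0.27) all had log2 ratios above 0. With every cell given equal weight the median was −0.21.

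Monocyte genes split. Of 28 genes that mark recruited monocytes 23 were higher in KO with a median log2 ratio of 0.33, such as Vcan (45.1 and 78.8 CPM), Chil3 (549.9 and 799 CPM) and the chemokine receptor Ccr2 (525 and 688 CPM). Ly6c2, the Ly6C antigen of classical monocytes, stood at 285 and 181 CPM and was lower, as was Ms4a4c (346 and 199 CPM). Saa3, a serum amyloid A gene within 2 Mb of Trpm4, was lower too (391 and 194 CPM). Among cells with at most 8000 UMIs 27 of the 28 were lower, with a median of −0.28, and Saa3 kept its direction at −1.58. The resident list, which includes genes for the uptake of dying cells, had 14 of 18 members lower with a median of −0.24. Folr2 stood at 95.5 and 49.1 CPM and Pf4 at 3817 and 2313 CPM. Within the cells of at most 8000 UMIs 10 of the 18 were lower with a median of −0.02, and the log2 ratios of Folr2 and Pf4 were −0.02 and −0.04 in place of −0.96 and −0.72. Of 14 complement genes 10 were lower with a median of −0.29, which was −0.08 among cells with at most 8000 UMIs, where C1qa (0.32), C1qb (0.42) and C1qc (0.26) were higher in KO. Cfb, the interferon-inducible factor B of the alternative pathway, stood at 58.2 and 23.3 CPM, and C3 was higher in KO at 37.6 and 60.8 CPM but had a log2 ratio of −0.09 among cells with at most 8000 UMIs.

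Several other groups were close to level or unstable. Oxidative phosphorylation genes had a median log2 ratio of 0.01 over 39 members, and heat shock genes −0.02 over 19. Hspa1a stood at 32.3 CPM in WT and 77.3 CPM in KO, with a log2 ratio of 0.19 among cells with at most 8000 UMIs in place of 1.26, but Hspa1a and Hspa1b are near-identical copies and their split is uncertain. Of 26 hypoxia and glycolysis genes 20 were higher in KO with a median of 0.12, led by Vegfa, the endothelial growth factor, at 6.52 and 23.3 CPM. Among cells with at most 8000 UMIs that median was −0.14, and the log2 ratio of Vegfa was 0.39 in place of 1.84. Cell cycle genes had a median of −0.52 with 26 of 28 lower, a median of 0.03 with equal weight per cell, and 0.61 among cells with at most 8000 UMIs. Genes of calcium handling and TRP channels, the family to which Trpm4 belongs, showed no common direction: 17 of 40 were higher and 23 lower, with a median of −0.04. The store-operated channel Orai1 stood at 86.0 and 80.5 CPM and its sensor Stim1 at 17.7 and 21.4 CPM. Mcoln2, a lysosomal TRP channel, was the single member at least 2-fold lower, at 6.05 and 1.86 CPM.

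**Figure D3:**
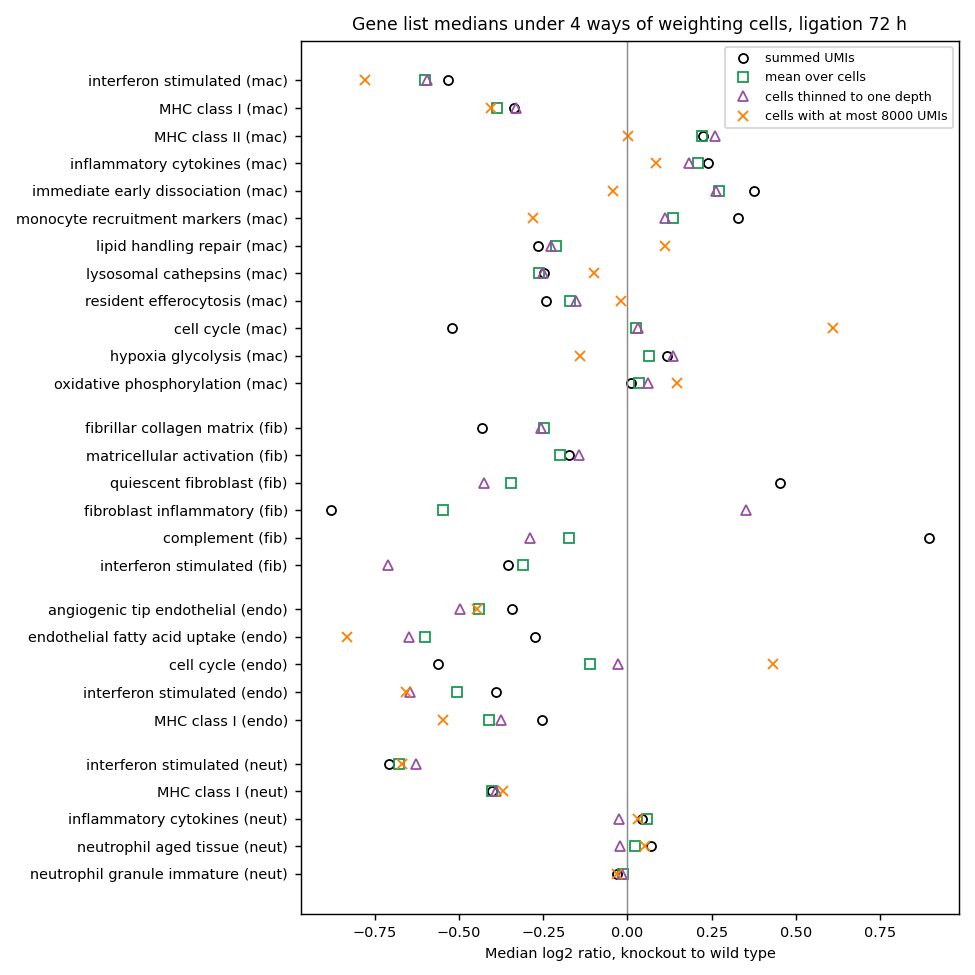
Median log2 ratio of KO to WT for each gene list and class, computed from summed UMIs, from cells thinned to equal depth, with equal weight per cell and among cells with at most 8000 UMIs. Interferon-stimulated genes in macrophages stay between −0.78 and −0.53, while the lipid-handling list moves from −0.26 to 0.11.

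Beyond the lists, the genes named by rule as higher in macrophages included Lars2, the mitochondrial leucyl-tRNA synthetase, at 258 and 612 CPM, a ratio of 2.38 (2.29 to 2.46). Malat1, a nuclear long noncoding RNA, stood at 4649 and 7483 CPM, a ratio of 1.61 (1.59 to 1.62). Also named as higher were Dleu2, Hist1h1e, Bloc1s1, Chd9, Atf3, Hist1h2ap and Rgs1, with ratios from 1.52 to 1.85. UMIs of histone genes can be split between near-identical copies. Named as lower were Ccl8, Irf7, Hmox1, Saa3, Isg15, Ccl7, Ms4a4c and Fabp5, given above, and Syngr1 and the heme transporter Slc48a1, with ratios of 0.569 and 0.579. Among cells with at most 8000 UMIs, Syngr1 had a log2 ratio of 1.28, Slc48a1 of 0.40 and Ccl7 of 0.25.

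Neutrophils showed the lower interferon response in KO as well, with little difference in inflammatory genes. Of 30 measured interferon-stimulated genes 24 were lower in KO, and the median log2 ratio was −0.71. Ifi27l2a, an interferon-inducible gene outside that list, was the lowest named gene, at 4577 CPM in WT and 998 CPM in KO. Across 3753 measured genes the median was 0.01, 51.6% were higher in KO by any amount, 20 genes (0.533%) were at least 2-fold higher and 38 (1.01%) at least 2-fold lower. Depth was similar in this class, with medians of 2293 UMIs in WT and 2143 in KO.

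The ratio of Ifi27l2a was 0.218 (0.20 to 0.237). Zbp1, a sensor of left-handed nucleic acid that can trigger necroptosis, stood at 178 CPM in WT and 42.6 CPM in KO, a ratio of 0.239 (0.153 to 0.358). Irf7 stood at 399 and 193 CPM, a ratio of 0.485 (0.395 to 0.592), and Isg15 at 1315 and 669 CPM, a ratio of 0.508 (0.456 to 0.566). Of the 30 members 6 (20%) were at least 2-fold lower and 2 were at least 2-fold higher. Both of the latter rest on few cells: for Cxcl10 (68.4 and 257 CPM) a single KO barcode held 54.8% of the UMIs, and for Gbp2 (40.8 and 81.9 CPM) a single KO barcode held 24.0%. A single KO barcode also held 33.3% of the Ifit3 UMIs (551 and 236 CPM). Summed over the list the level was 6745 CPM in WT and 4426 CPM in KO. With each neutrophil thinned to 1500 UMIs, which left out none, the median cell had 2 UMIs of the list in WT and 1 in KO, and the 90th percentile was 29 and 16. Without thinning the list made up 1.95% of UMIs at the 90th percentile in WT and 1.08% in KO.

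Of 12 MHC class I genes 11 were lower in KO neutrophils, with a median log2 ratio of −0.40. H2-D1 stood at 2134 CPM (WT) and 1444 CPM (KO), and B2m at 1406 and 1093 CPM. Inflammatory genes were divided, with 11 of 21 higher and a median of 0.04. Il1b, the most abundant of them, stood at 12598 and 12232 CPM, and Cxcl2 at 8833 and 10932 CPM. Genes of aged tissue neutrophils had 15 of 28 members higher with a median of 0.07. Siglecf, a marker of neutrophils that mature in the injured heart, stood at 263 and 223 CPM, and Olr1, a scavenger receptor for oxidized lipoprotein, at 40.1 and 106.5 CPM, a ratio of 2.65 (1.84 to 3.83). Granule genes of younger neutrophils had a median of −0.03 over 14 members, and Retnlg, which marks recent arrivals, stood at 1339.9 and 936 CPM. In the cluster led by Siglecf and Ccrl2 the interferon-stimulated median was −0.39, and in the one led by Retnlg it was −0.45. Among 19 measured calcium and TRP genes the median was −0.11. Trpm2, a channel opened by oxidative stress, stood at 55.3 and 27.9 CPM, a ratio of 0.504 (0.281 to 0.856). Summed macrophage markers in neutrophils were 424 CPM (WT) and 501 CPM (KO), and summed platelet markers 203 and 32.8 CPM. Their part in these values was not tested. The other genes named as lower were Xaf1, Ifi207, Rtp4, Osgin1 and Ifit3b. Those named as higher beside Olr1 included Lars2, Hist1h1e, Hist2h2aa1, Hnrnpa0, Spag9, Smap2, Egr1 and Rlim, with ratios from 1.64 to 2.4.

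In the summed RNA of KO fibroblasts, fibrillar collagens and genes of the activated state were lower than in WT. Col1a1, Col3a1 and Col1a2, the main chains of scar collagen, had ratios between 0.517 and 0.569, although the difference of Col1a1 was smaller when every cell had equal weight. Sfrp2, a secreted modulator of WNT signaling, and the chemokine Cxcl5 were lower under both weightings. The comparison rests on 127 WT and 117 KO cells with medians of 16579 and 5195 UMIs. In the cluster led by Cthrc1 and Col1a1 the medians were 33280 UMIs in WT and 4460.5 in KO. In the one led by Clec3b and Abca8a they were 6495.5 and 7526, so the sums weight the 2 clusters unlike in WT and KO. Of 5997 measured genes 102 (1.7%) were at least 2-fold higher in KO and 73 (1.22%) at least 2-fold lower, with a median log2 ratio of −0.01 and 49.1% higher by any amount.

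Col1a1 stood at 6842 CPM in WT fibroblasts and 3534 CPM in KO, a ratio of 0.517 (0.50 to 0.534). Col3a1 stood at 6414 and 3558 CPM and Lox, which crosslinks collagen, at 400.4 and 238 CPM. Of 31 collagen and matrix genes 25 were lower with a median log2 ratio of −0.43, and none was 2-fold lower. Decorin (Dcn), a small proteoglycan on collagen fibrils, went the other way at 3451 and 5102 CPM, as did the 3 measured chains of collagen VI, such as Col6a2 at 177 and 238 CPM. With equal weight per cell the collagen median was −0.25 and with thinned cells −0.26. The log2 ratio of Col1a1 was then −0.27 with equal weight in place of −0.95, that of Lox 0.22, that of Col6a1 −0.15 and that of Dcn −0.32, so that Lox, Col6a1 and Dcn turned direction.

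**Figure D4:**
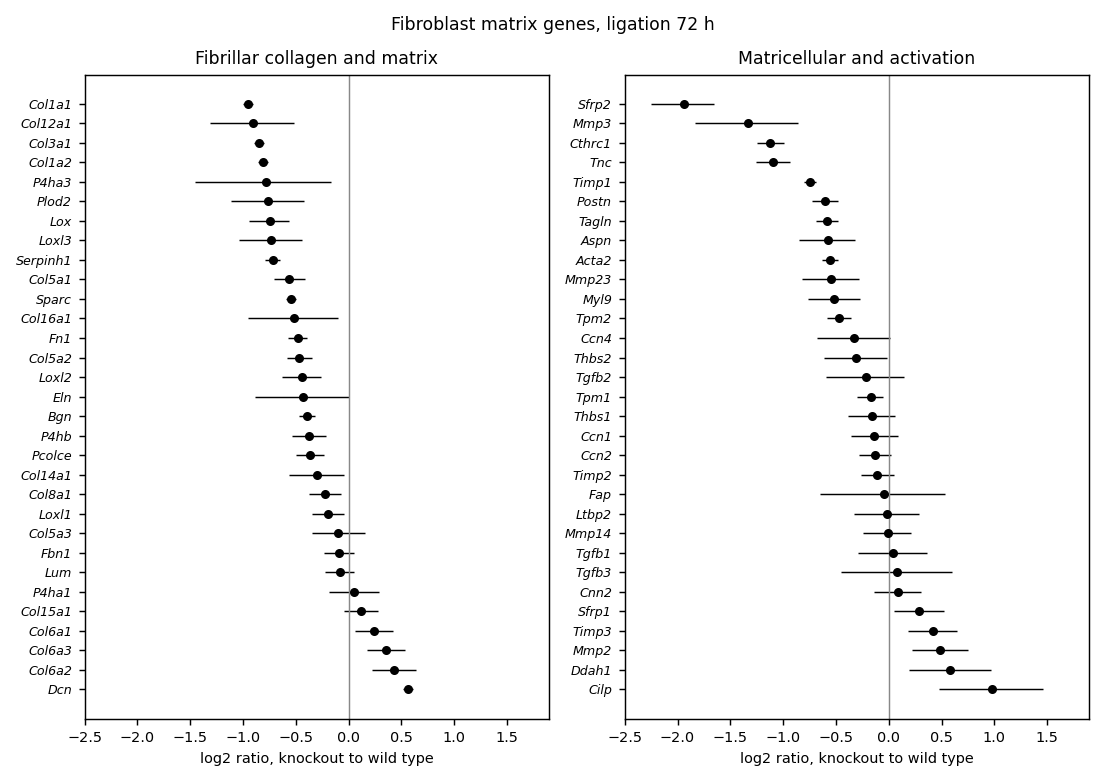
Log2 ratio of KO to WT for the collagen and matrix genes and the matricellular genes in fibroblasts from summed UMIs, as points with 95% intervals of counting error. Col1a1, Col3a1 and Col1a2 lie at −0.95, −0.85 and −0.81, and Dcn at 0.56.

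The matricellular list had 23 of 31 members lower, a median log2 ratio of −0.17 and 4 members (12.9%) at least 2-fold lower. Sfrp2 stood at 337 CPM in WT and 87.6 CPM in KO, a ratio of 0.260. Cthrc1 stood at 1045 and 481 CPM and Tnc, the matrix protein tenascin C, at 670.2 and 314 CPM, with log2 ratios of −1.12 and −1.09. With equal weight per cell these values were −0.38 and −0.26, while Sfrp2 stayed at −1.77. Timp1, an inhibitor of matrix proteases, stood at 4864 and 2904 CPM, and Postn, the matrix protein periostin, at 859 and 565 CPM. Acta2, the actin of myofibroblasts, stood at 2201 and 1493 CPM. Their log2 ratios were −0.20, −0.21 and −0.05 with equal weight per cell, against −0.74, −0.60 and −0.56 in the sum. The 2 lowest named genes were Rhox5, a homeobox gene, at 110.3 and 9.36 CPM, and Ccn5, a matricellular protein of the CCN family, at 225 and 28.1 CPM. Their ratios were 0.0848 (0.0420 to 0.154) and 0.125 (0.0851 to 0.177). The other genes named as lower were Tspan6, Bst2, Cxcl12, Angptl4 and Fkbp10.

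Inflammatory genes of fibroblasts were lower in KO in 10 of 13 cases, with a median log2 ratio of −0.88 and 6 at least 2-fold lower. Il6, the cytokine interleukin-6, stood at 35.6 CPM in WT and 9.36 CPM in KO, Cxcl1 at 158 and 64.6 CPM and Cxcl5 at 364 and 151 CPM. Il33, an alarmin, stood at 89.4 and 42.5 CPM, and Has2, which makes hyaluronan, was higher in KO at 14.7 and 31.5 CPM. In thinned cells 6 of the 13 were measured and their median was 0.35, while with equal weight per cell it was −0.55. Cxcl5 and Il6 had log2 ratios of −0.91 and −1.63 with equal weight per cell. Of 22 interferon-stimulated genes 17 were lower with a median of −0.35 and 6 (27.3%) at least 2-fold lower, such as Isg15 (244 and 82.5 CPM) and Bst2 (388 and 155 CPM).

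Genes of quiescent fibroblasts and complement turned with the weighting of cells. Of 24 quiescence genes 19 were higher in KO with a median log2 ratio of 0.45, such as Pi16 (105 and 179 CPM) and Clec3b (117 and 211 CPM). The median was −0.43 in thinned cells and −0.35 with equal weight per cell. All 11 complement genes were higher in KO with a median of 0.90, against −0.29 and −0.17 under the same 2 settings. Among the genes named as higher, Abca8a, Tnxb and Sparcl1 had log2 ratios of −0.19, −0.23 and −0.14 with equal weight per cell, while Hes1 (63.9 and 145 CPM), a target of Notch, and Igf1 (63.6 and 139.5 CPM), a growth factor, kept their direction under all alternatives run for them. Lars2, Egr1, Ccnd1 and Akap12 were also named. Summed macrophage markers in fibroblasts were 204 CPM (WT) and 680 CPM (KO), and summed neutrophil markers 227 and 709 CPM. Without cells above 0.2% of such UMIs, 120 WT and 75 KO fibroblasts remained. The collagen median was then −0.35, the inflammatory median −1.20 and the interferon-stimulated median −0.76. Macrophage genes moved with these markers: Cd68 stood at 8.60 and 58.7 CPM and Ctss at 31.6 and 162 CPM in fibroblasts.

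Endothelial cells of KO hearts had lower levels of some genes made by sprouting vessels. Of 26 measured genes in the angiogenic list 7 were higher in KO. The list's median log2 ratio was −0.34, and −0.10 without cells holding RNA of other lineages. Apln, the peptide ligand apelin of tip cells, Pgf, placental growth factor, and Adm, the vasodilator adrenomedullin, each stood below 0.42 of the WT level. Interferon-stimulated genes were lower here too. The class held 163 WT and 117 KO cells with medians of 6385 and 3654 UMIs. Of 4763 measured genes 80 (1.68%) were at least 2-fold higher in KO and 72 (1.51%) at least 2-fold lower, with a median log2 ratio of −0.07 and 41.2% higher by any amount.

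Apln stood at 239 CPM in WT and 84.6 CPM in KO, a ratio of 0.354 (0.266 to 0.463), and Pgf at 256 and 101 CPM, a ratio of 0.395 (0.305 to 0.506). Adm stood at 106 and 43.7 CPM. Angpt2, a ligand that loosens vessel walls, stood at 61.5 and 23.2 CPM, and Esm1, a tip cell proteoglycan, at 58.7 and 4.09 CPM. The KO value of Esm1 rests on 3 UMIs, and its ratio was 0.0698 (0.0142 to 0.210). With equal weight per cell Apln, Pgf and Adm had log2 ratios of −1.38, −1.10 and −0.81. Kdr and Flt1, the receptors of vascular growth factors, stood at 402 and 386 CPM and at 359 and 408 CPM. Of 26 angiogenic genes 19 were lower with a median log2 ratio of −0.34, and 5 (19.2%) were at least 2-fold lower. Of 12 genes of fatty acid uptake 9 were lower with a median of −0.28, such as Gpihbp1, which anchors lipoprotein lipase (969.9 and 751 CPM), and Fabp4 (12261 and 10057 CPM). With equal weight per cell the 2 medians were −0.44 and −0.60. Lpl was named as higher, at 76.7 and 127 CPM, but had a log2 ratio of −0.09 with equal weight per cell and −0.52 among cells with at most 8000 UMIs.

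Of 26 interferon-stimulated genes 23 were lower in KO endothelial cells, with a median log2 ratio of −0.39 and 5 (19.2%) at least 2-fold lower. Irf7 had the lowest ratio of the genes named by rule, at 117 CPM in WT and 40.9 CPM in KO, or 0.349 (0.230 to 0.513). Isg15 stood at 253 and 127 CPM and Rsad2 at 102 and 50.5 CPM. Of 14 MHC class I genes 12 were lower with a median of −0.25. Cell cycle genes had 22 of 25 lower with a median of −0.56, such as Top2a at 80.7 and 15 CPM, but a median of −0.03 in thinned cells. The other genes named as lower were Sqstm1, Tspan6, Ift122, Ercc1, Glo1 and Pclaf, and those named as higher included Lars2, Bloc1s1, Efnb2, Stag1, BC005537, Ptpn18, Trim37 and Dab2. Pclaf had a log2 ratio of 0.04 with equal weight per cell.

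Macrophage markers moved strongly with genotype in this class. Summed over 13 markers they stood at 138 CPM in WT and 1299 CPM in KO, with none at 0 in either. MHC class II genes (Cd74 at 121 and 692 CPM), complement C1qa (9.59 and 162 CPM) and Ccl2 (15.8 and 199 CPM) were higher beside them, and their part was not tested. Without cells above 0.2% of macrophage and neutrophil UMIs, 159 WT and 73 KO cells remained. The angiogenic median was then −0.10 with 14 of 26 lower and the same number, 5, at least 2-fold lower. The log2 ratio of Cd74 was −0.02 in place of 2.52, while that of Ccl2 was 4.04. The interferon-stimulated median was −0.43, and 32 rather than 80 genes were at least 2-fold higher.

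Dendritic cells differed from the other classes in that the interferon-stimulated genes had no common direction. Of 31 measured members 19 were higher in KO and 12 lower, with a median log2 ratio of 0.08, where the median of all 5429 measured genes was −0.05. Giving each cell equal weight turned the tally to 13 higher and 18 lower and the median to −0.08. The difference between classes itself was not tested. Isg15 stood at 309.5 CPM (WT) and 363 CPM (KO), and Irf7 at 153 and 152 CPM. The log2 ratio of Isg15 was 0.23, and −0.14 with equal weight per cell. That of Irf7 was −0.01, and −0.24 with equal weight per cell. Of the members 3 were at least 2-fold higher, Rsad2, Ifit2 and Cxcl10, and 1 was at least 2-fold lower, Ifit3b. Rsad2, Ifit2 and Cxcl10 were detected in 8.48%, 9.09% and 7.27% of KO cells. With equal weight per cell their log2 ratios were 0.78, 0.28 and 2.11, against 1.01, 1.11 and 1.56 in the sum. Over all genes 42.8% were higher in KO by any amount, 0.939% were at least 2-fold higher and 0.663% at least 2-fold lower. Of 10 MHC class II genes 8 were lower with a median of −0.20, such as Cd74, the invariant chain, at 26964 and 22586 CPM. The genes named as higher included Hist1h1e and Bloc1s1. Named as lower were Spint1, a protease inhibitor (110.0 and 48.2 CPM), Actr3, a subunit of the actin-nucleating ARP2/3 complex (750.5 and 378 CPM), and Hspa5, the chaperone of the endoplasmic reticulum (499 and 268 CPM). Summed neutrophil markers in this class were 109 CPM in WT and 397 CPM in KO.

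Few genes differed alike in every class. Of 2536 genes measured in all 5 classes, 4 were at least 1.5-fold higher in KO in each, among them Lars2, and none was at least 1.5-fold lower in each. Lars2 had log2 ratios from 1.03 to 1.27 over the classes. In the sham comparison its log2 ratios lay between −0.05 and 0.29, and at 24 h of ligation between −1.05 and −0.71. Lars2 thus did not keep 1 direction over the 3 comparisons.

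The same lists were read in the sham and 24 h comparisons after all 6 libraries had been clustered together. The 3 comparisons share no libraries, and differences between them were not tested. Interferon-stimulated genes in macrophages had medians of 0.19 after sham (27 of 36 higher in KO), −0.25 at 24 h (9 of 35 higher) and −0.51 at 72 h (1 of 38 higher). Their summed level was 1290 and 1456 CPM after sham, 1678 and 1459 CPM at 24 h, and 3813 and 2713 CPM at 72 h in WT and KO. The list was thus highest at 72 h in both genotypes. The 90th percentile of thinned macrophages was 7 UMIs in WT and 8 in KO after sham, 10 and 9 at 24 h, and 25 and 13 at 72 h. In neutrophils the medians were 0.15, −0.28 and −0.64, and the 90th percentiles were 7 and 7, 10 and 7.5, and 29.9 and 15 UMIs. MHC class I genes in macrophages had medians of 0.10, 0.04 and −0.32. Over all measured genes the medians were 0.03, −0.12 and −0.01 in macrophages and 0.005, 0.03 and 0.01 in neutrophils.

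In fibroblasts the collagen list had medians of 0.02 after sham, 0.01 at 24 h and −0.39 at 72 h. Interferon-stimulated genes there stood at −0.02, −0.58 and −0.32. In endothelial cells the angiogenic list had medians of 0.01, −0.17 and −0.17, and interferon-stimulated genes −0.02, 0.09 and −0.62. Inflammatory genes in macrophages had medians of 0.22, −0.61 and 0.24, and lipid-handling genes 0.05, 0.09 and −0.31. Over all measured genes the medians were −0.02, −0.10 and −0.003 in fibroblasts and −0.06, −0.07 and −0.05 in endothelial cells.

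**Figure D5:**
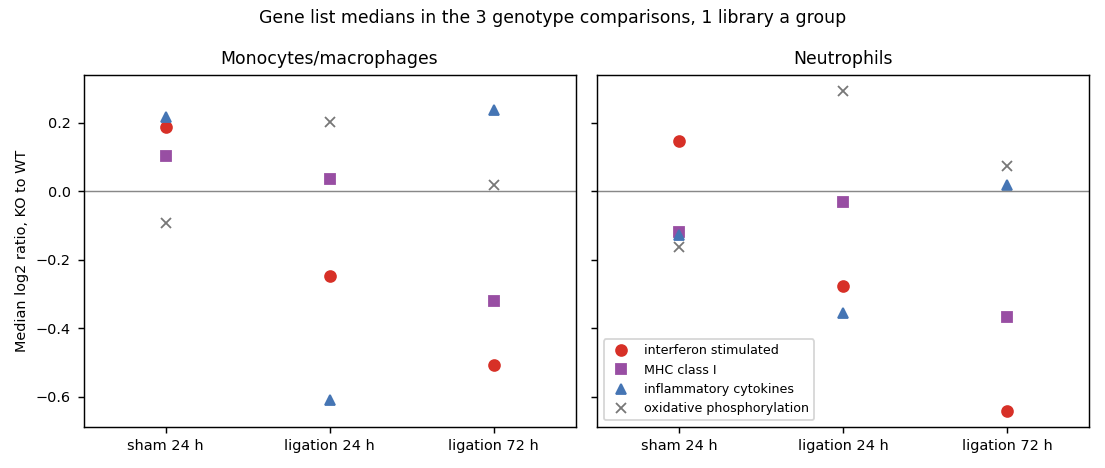
Median log2 ratio of KO to WT for the interferon-stimulated, MHC class I, inflammatory and oxidative phosphorylation lists in macrophages (left) and neutrophils (right), after sham at 24 h and after ligation at 24 h and 72 h, from 1 library per group. Interferon-stimulated genes stand at 0.19, −0.25 and −0.51 in macrophages and at 0.15, −0.28 and −0.64 in neutrophils. The medians over all measured genes, not drawn, are 0.03, −0.12 and −0.01 in macrophages and 0.005, 0.03 and 0.01 in neutrophils.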

How the data were processed

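Single cells of infarcted mouse ventricles were read by 10x 3′ sequencing, 1 library of 4 pooled mice for each genotype. The deposited matrices hold UMI counts per gene and barcode, made by the authors with Cell Ranger 6.0.0 and mm10, per the submitters' processing notes; the annotation is not given in the sources used here. Depth per library was 45649061 UMIs in WT and 20995280 in KO.

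Cells were filtered as stated in the report, and the highest Scrublet doublet scores were removed at 0.8% per 1000 deposited barcodes (142 WT and 127 KO cells). Counts were scaled to 10000 per cell, and 2000 variable genes, 30 principal components, 20 neighbors and Leiden resolution 1 gave the clusters (scanpy 1.11.5, leidenalg 0.10.2, Python 3.11.15). Clusters were named from marker lists, with naming thresholds set after the data were seen. UMIs were summed per class and library and divided by the class total to give CPM. KO to WT ratios carry exact conditional Poisson intervals (scipy 1.17.1), shares carry Clopper-Pearson intervals, and differences of shares carry Newcombe intervals, all at 95% and covering counting error only. A level of 0 was bounded by 3 counts. Equal weight per cell means that the CPM of each cell was averaged. The calculation was tested on simulated data.

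Named genes needed at least 20 expected UMIs in each library and 100 CPM in the higher library. That level had to be at least 0.25 of the highest class, and no barcode could hold over 20% of the UMIs there. Class markers, mitochondrial, ribosomal protein, hemoglobin, immunoglobulin and predicted genes were left out. The 10 highest and 10 lowest ratios were named in macrophages, neutrophils, fibroblasts and endothelial cells (each with at least 100 cells per library), and 3 of each in other classes of at least 50, here dendritic cells. The members and gene lists were chosen with earlier results of these data known. Alternatives covered the UMI minimum, depth, weighting, scaling, count filter, doublets, clustering and cells with RNA of other lineages, the last chosen after seeing the data. Some genes that met these rules are not reported here.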

Additional observations from a re-analysis of the deposited data

Results flagged for a closer look

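Several gene lists had opposite directions at 24 h and 72 h of ligation, with all 6 libraries clustered together and 1 library per group, so the difference was not tested. Inflammatory genes of macrophages had a median log2 ratio of 0.24 at 72 h (17 of 24 higher in KO) and −0.61 at 24 h (0 of 25 higher). Immediate early genes of macrophages stood at 0.33 (19 of 24) and −0.52 (2 of 26), and those of fibroblasts at 0.40 (14 of 19) and −0.43 (3 of 26). Genes of quiescent fibroblasts stood at 0.52 (19 of 24) and −0.43 (5 of 26), and calcium and TRP genes of fibroblasts at 0.22 (16 of 22) and −0.28 (7 of 29). Over all measured genes the 24 h median was −0.12 in macrophages and −0.10 in fibroblasts. The direction of the lists at 72 h depended on the cells compared. In the clustering of the 72 h libraries alone, the quiescent list stood at −0.35 and the calcium and TRP list of fibroblasts at −0.03 with equal weight per cell, and the immediate early list of macrophages at −0.04 among cells with at most 8000 UMIs.

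Outside the named classes, the cluster with RNA of several lineages held 7.38% of the kept KO cells. Its summed profile correlated with that of all kept KO cells at r = 0.963 over 5378 genes, which are not independent replicates. The cluster's own cells are part of that whole, which raises r. For the few other clusters compared in this way r lay between 0.723 and 0.907. They included the named fibroblast cluster led by Cthrc1 and Col1a1 (0.723) and the named endothelial cluster led by Plvap (0.771). No macrophage, neutrophil or dendritic cluster was compared, so a high r cannot be called particular to the cluster with RNA of several lineages.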

How the results depend on the processing

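No paired analysis was possible because each group is 1 library. Of the values that answer a comparison, 167 stayed close to the reported one under an alternative, 52 moved and 4 turned direction; the cause was not tested. At least 2-fold higher in KO were 245 macrophage, 192 neutrophil, 479 fibroblast and 383 endothelial genes at an expected count of 5, and 30, 8, 37 and 27 at 50. At least 2-fold lower were 225, 276, 327 and 448, and 27, 15, 23 and 18. Fewer low genes pass the higher filter. The number of genes measured changed with the filter and the cells used, so the counts here and below are not shares and cannot be compared between settings. In thinned cells 33 macrophage, 13 neutrophil and 46 fibroblast genes were higher and 40, 25 and 39 lower. With no UMI minimum 320 neutrophil, 359 fibroblast and 478 endothelial genes were higher and 113, 124 and 205 lower, the collagen median was −0.59 and the angiogenic median −0.73. With equal weight per cell 125 endothelial genes were higher, 148 endothelial and 175 fibroblast genes lower, and the lipid-handling median was −0.21. With no doublet removal 36 neutrophil and 155 fibroblast genes were higher. Without cells holding RNA of other lineages 49 fibroblast and 32 endothelial genes were higher, and with all 6 libraries clustered together 32 endothelial genes.

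Among cells with at most 8000 UMIs 108 macrophage genes were lower, the interferon-stimulated median was −0.78, the inflammatory median 0.083, the lipid-handling median 0.11 and the hypoxia median −0.14. There Hmox1 (0.27), Syngr1 (1.28), Ccl7 (0.25), Fabp5 (0.21) and Slc48a1 (0.40) in macrophages and Lpl (−0.52) in endothelial cells turned direction. In thinned cells Abca8a (−0.14), Tnxb (−0.32), Sparcl1 (−0.056) and Pclaf (0.027) did, and with equal weight per cell Abca8a (−0.19), Tnxb (−0.23), Sparcl1 (−0.14), Lpl (−0.093) and Pclaf (0.044). Ptpn18 turned to −0.0062 with 6 libraries and −0.19 without cells holding other RNA, and Efnb2 to −0.091 with no UMI minimum.

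The share differences, in points, were 7.87 for macrophages, −23.3 for neutrophils and 3.45 for fibroblasts at most 8000 UMIs. With no UMI minimum they were −26.8, −8.71, 9.58 and, for endothelial cells, 8.53. With 6 libraries they were −7.17 for macrophages and −0.12 for endothelial cells. The neutrophil difference was −0.27 at a minimum of 5000 UMIs, and the fibroblast difference 3.73 with no doublet removal and 0.29 at Leiden resolution 0.5. Genes were not compared in fibroblasts at Leiden resolution 0.5 or at most 8000 UMIs, nor in neutrophils and endothelial cells at the higher minimum, where too few cells remained.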

Other observations

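Erythroid RNA in macrophages and platelet RNA in neutrophils lay in few barcodes. Summed erythroid markers stood at 1920 CPM in WT macrophages and 2513 CPM in KO macrophages, and 10 barcodes held 99.8% and 99.5% of those UMIs. Platelet markers in neutrophils had 308 UMIs in WT and 20 in KO, and 10 barcodes held 92.2% of the WT UMIs. In macrophages platelet markers were more spread. There 10 barcodes held 27.2% of 2130 UMIs in WT and 65.4% of 540 UMIs in KO.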
